A study of Rattus norvegicus with 6 samples.

Results

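Transcripts of 5 genes that encode paraspeckle proteins or a partner of one were followed through RNA pull-downs from GH4C1 cells: Nono, Sfpq, Pspc1, Matr3 and Rbm14. They were taken by gene name, and each name matched 1 of the 32883 rows of the count table. All 5 were among the 11582 genes with enough counts to be tested. Only 3 of them, Nono, Sfpq and Pspc1, belong to the DBHS family (Drosophila behaviour and human splicing); Matr3 and Rbm14 are RNA-binding proteins of other families.

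Paraspeckles are nuclear bodies built on the long noncoding RNA Neat1, and they hold RNA-binding proteins and some nuclear-retained transcripts. DBHS proteins share tandem RNA recognition motifs and a coiled coil, through which they form homodimers and heterodimers that coat Neat1. NONO and SFPQ are needed for paraspeckles to form, whereas PSPC1 marks them. RBM14 is another protein on which their formation depends, through a prion-like domain. MATR3, matrin 3, is a protein of the nuclear matrix that binds RNA and SFPQ.

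GH4C1 is an established cell line from rat pituitary whose cells can make growth hormone and prolactin. All cells were wild type and had received psoralen, which crosslinks base-paired strands, and the study sought RNAs in direct contact with Neat1. RNA was retrieved with oligo pool A or oligo pool B, with 3 libraries each. The labels give neither the oligonucleotides of a pool nor whether one of them was a control, and input RNA was not analysed here. Whether libraries came from separate cultures is not stated either, so the p-values measure the spread between these libraries, which may be technical.

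Library totals ran from 1826390 to 3685899 counts, and levels are given as CPM, a gene's counts per 1000000 counts of its library. A level is a share of a library, so more of a transcript and less of the other RNA cannot be told apart. A run of 22 rows around the ribosomal RNA gene Rn5-8s took 18.5% ± 4.9 (SD, n = 3) of the counts from pool A and 8.20% ± 2.57 (SD, n = 3) from pool B. The cell line's markers were present: growth hormone (Gh1), prolactin (Prl) and Pou1f1, the lineage's transcription factor, together held 1011 to 1092 CPM from pool A and 703 to 903 CPM from pool B. Of 4 markers of other pituitary cell types, Fshb and Tshb were at 0 in all 6 libraries, Pomc had at most 11 counts, and Lhb was measured at 9.1 to 16 CPM from pool A and 40.0 to 45.0 CPM from pool B. The blood marker Hbb was at 0, Ptprc had at most 18 counts and the connective tissue marker Col1a1 at most 3.

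The comparison asks which transcripts were retrieved in different amounts by the pools. All 3 DBHS transcripts were higher from pool B, Nono and Sfpq by more than 3-fold and Pspc1 by close to 2-fold, while Matr3 and Rbm14 did not pass the test. Each log2 fold change sets pool A against pool B, so a negative value means more from pool B. The test was edgeR's quasi-likelihood test, with Benjamini-Hochberg adjusted p-values over all genes tested and a threshold of 0.05. Differences between the pools were common: 40.6% of all genes tested passed this threshold in either direction, with 18.6% higher from pool A and 22.0% higher from pool B. Which direction held more genes depended on the scaling: the 2154 genes higher from pool A and 2546 from pool B became 2515 and 2251 with upper-quartile factors, and 1722 and 2902 with total counts alone. Of the members, 3 of 5 were higher from pool B and 0 of 5 from pool A. Nono and Sfpq also differed by more than 2-fold, as did 14.2% of all genes tested in favour of pool B. Pspc1, at 1.98-fold, fell just short of this and was past it in some refits, as with total counts alone (log2 fold change -1.13). Fold changes rest on scaled libraries and CPM do not, so the ratio of 2 CPM means can differ from the fold change. The CPM ranges of the pools did not overlap for the same 3 members, against 49.1% of all genes tested.

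**Figure D1:**
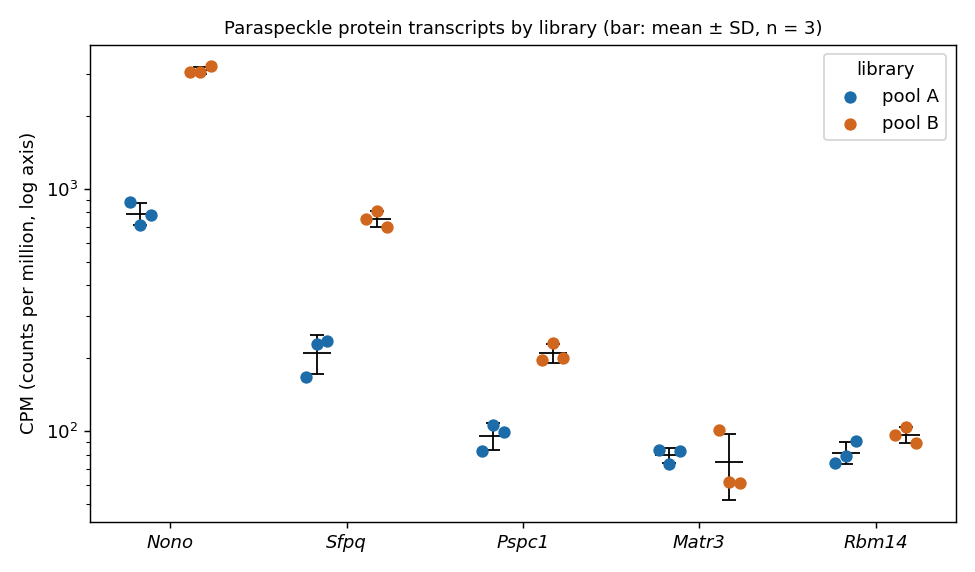
CPM of each member in each library on a log axis, with pool-A libraries in blue, pool B in orange, and black bars for the mean ± SD of 3 libraries. The pools are apart for Nono, Sfpq and Pspc1 and overlap for Matr3 and Rbm14.

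Nono (ENSRNOG00000003689) encodes a DBHS protein that forms heterodimers with both others. It had 879.8, 711.9 and 783.3 CPM in pool A replicates 1, 2 and 3, and 3036, 3048 and 3214 CPM in pool B replicates 1, 2 and 3. Every pool B library was far above every pool A library, and the pool B libraries lay close together. The means were 791.7 ± 84.3 CPM (SD, n = 3) from pool A and 3100 ± 100 CPM (SD, n = 3) from pool B. In edgeR's quasi-likelihood test the log2 fold change was -1.82 ± 0.14 (SE), with an adjusted p of 1.64e-11. This is 3.54-fold higher from pool B, with a 95% interval of 2.91 to 4.30. Nono was abundant in this material: its mean count exceeded that of 99.7% of the genes tested. A lower log2 fold change, further in favour of pool B, was found for 5.40% of the genes tested.

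Sfpq (ENSRNOG00000058461) encodes the splicing factor rich in proline and glutamine, the largest DBHS protein. Its level was 167.1, 228.2 and 236.2 CPM in pool A replicates 1, 2 and 3, and 752.6, 814.7 and 697.6 CPM in pool B replicates 1, 2 and 3. The pools were again apart, and pool A replicate 1 was the lowest library. The means were 210.5 ± 37.8 CPM (SD, n = 3) from pool A and 755.0 ± 58.6 CPM (SD, n = 3) from pool B. The log2 fold change was -1.70 ± 0.14 (SE; adjusted p = 1.24e-10 in edgeR's test). This is 3.25-fold higher from pool B, with a 95% interval of 2.65 to 3.97, and 6.37% of the genes tested had a lower log2 fold change.

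Pspc1 (ENSRNOG00000020782) encodes paraspeckle protein 1. It had 82.5, 105.6 and 98.8 CPM in pool A replicates 1, 2 and 3, and 196.3, 232.2 and 200.9 CPM in pool B replicates 1, 2 and 3. The groups did not overlap here either, though the gap was narrower than for the other DBHS genes. The means were 95.6 ± 11.9 CPM (SD, n = 3) from pool A and 209.8 ± 19.5 CPM (SD, n = 3) from pool B. The log2 fold change was -0.99 ± 0.15 (SE; adjusted p = 6.24e-06 in edgeR's test). This is 1.98-fold higher from pool B, with a 95% interval of 1.59 to 2.46, and 16.2% of the genes tested had a lower log2 fold change.

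Counted together, the DBHS transcripts took 0.113%, 0.105% and 0.112% of the counts in pool A replicates 1, 2 and 3. With pool B they took 0.399%, 0.409% and 0.411% in replicates 1, 2 and 3. The 95% Wilson intervals, which cover counting error only, reached at most 0.116% in any pool A library and went no lower than 0.391% in any pool B library. Nono made up 72.0% ± 5.2 (SD, n = 3) of these counts from pool A and 76.3% ± 1.9 (SD, n = 3) from pool B, and these shares overlapped between the pools. Pool A replicate 1, where Sfpq was lowest and Nono highest among the pool A libraries, had the largest Nono share of its pool, at 77.9%.

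Matr3 (ENSRNOG00000019875), which encodes the nuclear matrix protein matrin 3, was measured at 83.3, 73.2 and 82.8 CPM in pool A replicates 1, 2 and 3, and at 101.2, 61.9 and 61.3 CPM in pool B replicates 1, 2 and 3. The pools overlapped: pool B held both the highest library, replicate 1, and the lowest ones. The means were 79.8 ± 5.7 CPM (SD, n = 3) from pool A and 74.8 ± 22.9 CPM (SD, n = 3) from pool B. The log2 fold change of 0.23 ± 0.19 (SE) did not pass (adjusted p = 0.377 in edgeR's test). Its 95% interval of -0.17 to 0.63 takes in differences of either sign. The call depended on pool B replicate 1 and the value on each pool B library. Without pool B replicate 1 the log2 fold change was 0.52 and passed narrowly (adjusted p = 0.0429 in edgeR's test). It was 0.10 when pool B replicate 2 was omitted, and 0.10 when replicate 3 was. Over all 15 alternatives the adjusted p of Matr3 ranged from 0.0429 to 0.767.

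Rbm14 (ENSRNOG00000045568), whose protein is needed for paraspeckles to form, had 74.1, 79.1 and 90.7 CPM in pool A replicates 1, 2 and 3, and 96.1, 103.5 and 88.9 CPM in pool B replicates 1, 2 and 3. The ranges met at pool A replicate 3 and pool B replicate 3. The means were 81.3 ± 8.5 CPM (SD, n = 3) from pool A and 96.2 ± 7.3 CPM (SD, n = 3) from pool B. The log2 fold change was -0.10 ± 0.16 (SE), with a 95% interval of -0.44 to 0.24 and an adjusted p of 0.681 in edgeR's test. The sign of this estimate depended on the scaling and was 0.0052 with upper-quartile factors. Of the genes tested, 44.9% had a lower log2 fold change than Rbm14 and 60.1% a lower one than Matr3.

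**Figure D2:**
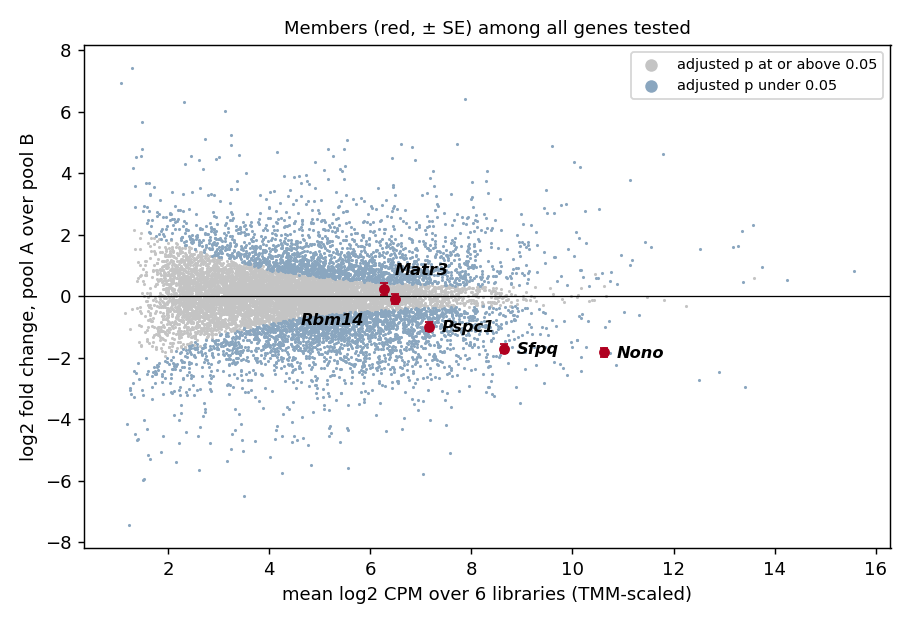
Log2 fold change (pool A over pool B) against mean log2 CPM over 6 libraries for all 11582 genes tested, in grey or, past the threshold, in pale blue, with the members in red ± SE. Nono, Sfpq and Pspc1 lie below 0 among the genes past the threshold, and Matr3 and Rbm14 lie near 0.

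The coefficient of variation between libraries was above that of counting error by point estimate for each member in each pool. Counting error alone gives a coefficient of variation of 1.14% for Nono from pool B, and 7.24% for Matr3 from pool B. The measured coefficients of variation were 3.21% and 30.6%. The values were close to each other for Rbm14 from pool B, at 6.52% from counting and 7.58% measured, and for Matr3 from pool A, at 6.3% and 7.17%. Whether such small excesses over counting error are more than chance was not tested. For Matr3 in pool B replicate 1 the 95% Wilson interval of 90.4 to 113.4 CPM lay above the upper bounds of pool B replicates 2 and 3, at 74.4 and 71.5 CPM.

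Library scaling was taken out of the comparison through ratios between members within a library. Such a ratio also depends on the lengths of both transcripts, which the table does not give, so only its difference between pools is read. For 8 of the 10 pairs the log2 ratios did not overlap between the pools. With 3 against 3 libraries the exact two-sided permutation test cannot give a p under 0.1, and these 8 pairs had p = 0.1 and 0.125 after Benjamini-Hochberg adjustment over the 10 pairs. No pair could therefore pass, and the values serve as a description.

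Over all 6 libraries, the pair that kept its ratio closest was Nono and Sfpq. The log2 ratio of their counts was 2.40, 1.64 and 1.73 in pool A replicates 1, 2 and 3, and 2.01, 1.90 and 2.20 in pool B replicates 1, 2 and 3. The means differed by -0.12 (pool A minus pool B; exact permutation p = 0.7, adjusted 0.7), and the pool B values lay inside the range of pool A. The difference turned to 0.023 without pool A replicate 2. Without pool A replicate 1 it was -0.35, and Matr3 and Rbm14 then kept their ratio closer, with a difference of 0.28.

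Pspc1 differed less between the pools than Nono and Sfpq did. The log2 ratio of Nono to Pspc1 was 3.42, 2.75 and 2.99 in pool A replicates 1, 2 and 3, and 3.95, 3.71 and 4.0 in pool B replicates 1, 2 and 3. The difference of the means was -0.84 (exact permutation p = 0.1). For Sfpq to Pspc1 the means were 1.13 ± 0.12 (SD, n = 3) from pool A and 1.85 ± 0.08 (SD, n = 3) from pool B, and the difference was -0.72 (exact permutation p = 0.1). Both ratios were higher in every pool B library than in any pool A library.

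Set against Rbm14, each DBHS transcript was higher in every pool B library. The log2 ratio of Sfpq to Rbm14 was 1.17, 1.53 and 1.38 in pool A replicates 1, 2 and 3. It was 2.969, 2.977 and 2.972 in pool B replicates 1, 2 and 3. These pool B values lie closer together than counting error would give, at 6.52% for Rbm14 alone, so their closeness is not read as a result. The differences of the means were -1.73 for Nono, -1.61 for Sfpq and -0.89 for Pspc1. Set against Matr3 they were -2.11 for Nono, -1.99 for Sfpq and -1.27 for Pspc1. Matr3 against Rbm14 differed by 0.38, with overlapping values (exact permutation p = 0.3, adjusted 0.333). With 1 library left out this difference lay between 0.21 and 0.61. It was 0.61 without pool B replicate 1, and the values then no longer overlapped.

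**Figure D3:**
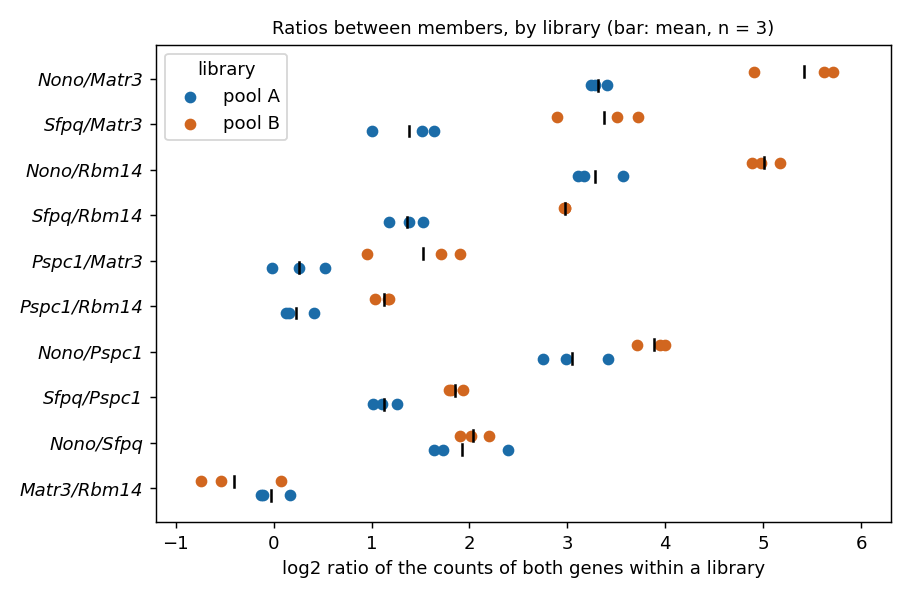
Log2 ratio of the counts of 2 members within each library for all 10 pairs, with pool-A libraries in blue, pool B in orange and bars for the mean of 3 libraries. The pools overlap for Nono/Sfpq and Matr3/Rbm14 and for none of the other 8 pairs.

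Reads of neighbouring or similar genes could be counted for a member under a counting scheme whose strand and multi-mapping settings are not given in the sources used here. In the GRCr8 gene list of RefSeq, 10 pseudogenes are named after Nono, 2 after Sfpq and 3 after Matr3, and none after Pspc1 or Rbm14. No row of the table carries one of these names, and no row other than the 5 holds a member's name within its own. How reads shared with such copies were assigned was not tested.

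The rows next to Rbm14 went in different directions. In RefSeq its gene model overlaps those of Rbm4 and Rbm4b, which encode splicing regulators and occupy the preceding rows. Rbm4 was higher from pool A, at 178.3 ± 20.7 CPM (SD, n = 3) against 80.0 ± 15.4 CPM (SD, n = 3) from pool B, which is a log2 fold change of 1.31 ± 0.16 (SE; edgeR's adjusted p = 1.62e-07). Rbm4b did not pass, with a log2 fold change of 0.24 ± 0.18 (SE). Ccs, the copper chaperone of superoxide dismutase, lies on the other side and was higher from pool B, with a log2 fold change of -2.45 ± 0.28 (SE; edgeR's adjusted p = 5.40e-08). The level of Rbm14 is uncertain to the extent that it shares reads with Rbm4 and Rbm4b.

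Next to Matr3, Paip2, which encodes a repressor of poly(A)-binding protein, was higher from pool B. It had 80.4 ± 15.2 CPM (SD, n = 3) there and 22.5 ± 0.7 CPM (SD, n = 3) from pool A, which is a log2 fold change of -1.69 ± 0.22 (SE; edgeR's adjusted p = 3.44e-07). Matr3 itself did not pass in either direction. The rows beside Nono, Sfpq and Pspc1 held few counts by comparison: the highest mean among the rows within 2 places was 71.4 CPM, for Zmym3 from pool A.

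Other paraspeckle proteins are given from a list of 35 genes, of which 34 were in the table and 29 could be tested. Of the 29, 15 were higher from pool A, 5 were higher from pool B, the direction of the DBHS transcripts, and 9 did not pass. These are 51.7% higher from pool A, against 18.6% of all genes tested, and 17.2% higher from pool B, against 22.0%. The share past the threshold was 69.0%, against 40.6% of all genes tested, and the median log2 fold change was 0.82, against 0.02 over all genes tested. The filter on low counts kept out Dlx3, Fign, Rbm12, Runx3 and Rbmx, which had at most 1 count in a library. Mex3a was not matched by name.

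Among paraspeckle genes higher from pool A, Tardbp, which encodes the RNA-binding protein TDP-43, had 509.6 ± 66.1 CPM (SD, n = 3) from pool A and 26.4 ± 1.0 CPM (SD, n = 3) from pool B. This gave a log2 fold change of 4.42 ± 0.17 (SE; edgeR's adjusted p = 2.24e-17). Taf15 and Ewsr1, whose proteins carry prion-like domains, followed with 3.86 ± 0.29 (SE) and 2.38 ± 0.16 (SE) on the log2 scale. Taf15 was low from pool B, at 2.7 to 7.9 CPM, and its log2 fold change lay between 3.58 and 4.12 with 1 library left out. Ss18l1, a chromatin remodelling subunit, had one of 1.98 ± 0.19 (SE). All 4 were past the threshold in the direction opposite to Nono and Sfpq.

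Hnrnpf, an RNA-binding protein that recognises runs of guanine, was furthest in favour of pool B, with 761.3 ± 118.2 CPM (SD, n = 3) there and 143.0 ± 8.0 CPM (SD, n = 3) from pool A. This gave a log2 fold change of -2.27 ± 0.14 (SE; edgeR's adjusted p = 5.02e-13). Akap8l, a nuclear anchoring protein, had a log2 fold change of -1.24 ± 0.13 (SE). Cirbp, the cold-inducible RNA-binding protein, had one of -1.15 ± 0.14 (SE), and Hnrnpul1 one of -0.87 ± 0.13 (SE). With Dazap1, these made up the 5 genes of the list past the threshold in the direction of the DBHS transcripts.

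Transcripts of other proteins on which paraspeckle formation depends were divided. Dazap1 was higher from pool B, with 191.3 ± 14.3 CPM (SD, n = 3) there and 74.7 ± 1.7 CPM (SD, n = 3) from pool A, which is a log2 fold change of -1.21 ± 0.15 (SE; edgeR's adjusted p = 1.93e-07). Hnrnph3 was higher from pool A, with a log2 fold change of 1.90 ± 0.16 (SE; edgeR's adjusted p = 1.59e-10). Hnrnpk and the chromatin remodelling ATPase Smarca4 did not pass. The log2 fold change was -0.091 ± 0.166 (SE) for Hnrnpk and -0.080 ± 0.133 (SE) for Smarca4, and both signs turned with upper-quartile factors.

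Genes whose names are Rbm followed by a digit or the letter x, the group to which Rbm14 belongs by name, were split evenly. Of 40 such genes other than Rbm14, 30 could be tested, and 6 were higher from pool A, 6 were higher from pool B and 18 did not pass. The share past the threshold, 40.0%, was near the 40.6% of all genes tested. This list and the list of other paraspeckle proteins share 5 genes. Rbm28, Rbm10 and Rbm27 had the largest log2 fold changes in favour of pool A, at 1.63 ± 0.14 (SE), 1.42 ± 0.14 (SE) and 1.34 ± 0.20 (SE). Rbm17, Rbm15 and Rbmxl1b had the largest in favour of pool B, at -1.37 ± 0.19 (SE), -1.36 ± 0.15 (SE) and -1.18 ± 0.27 (SE).

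**Figure D4:**
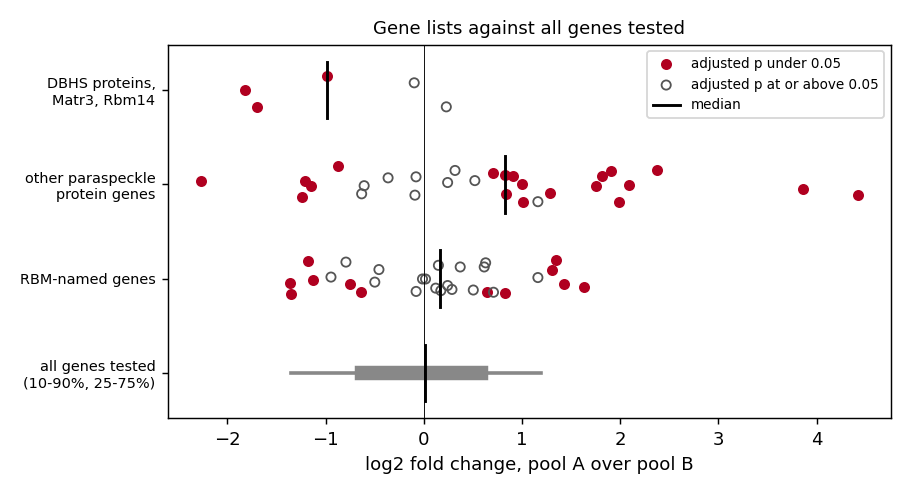
Log2 fold change (pool A over pool B) of the 5 members, 29 other paraspeckle protein genes and 30 RBM-named genes, 1 point a gene, filled where the adjusted p was under 0.05, with the median as a black bar. The lowest row gives the 10th to 90th (thin) and 25th to 75th (thick) percentiles and the median of all genes tested, and the medians are -0.99 for the members and 0.82 for the other paraspeckle genes.

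The genes with the profile most like a member were sought for Nono, Pspc1, Matr3 and Rbm14 over the 6 libraries by Pearson's r of log2 CPM, among symbol-named genes with a mean of at least 50 counts. For genes that differ between pools, r over 6 libraries mainly follows the pool, so these are descriptions and carry no test. Nono was followed most closely by Ist1, Nomo1 and Zfp2, with r from 0.9994 to 0.9997. For Pspc1 the genes were Hadha, Polr1a and Ctdspl2, with r from 0.998 to 0.999.

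Matr3 and Rbm14, which did not separate the pools, had weaker matches. Those of Matr3 were Sestd1, Lrpprc and Rundc3b, with r from 0.970 to 0.977. Those of Rbm14 were Clock, Ash1l and Ncam1, with r from 0.956 to 0.968.

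The direction and the call of the DBHS transcripts held across the processing alternatives. Over 15 refits with other scalings, filters, tests, a replicate block or 1 library left out, the log2 fold change ranged from -1.96 to -1.72 for Nono, from -1.84 to -1.56 for Sfpq and from -1.13 to -0.88 for Pspc1. The highest adjusted p among these refits was 0.000177, for Pspc1. Without the 22 rows around Rn5-8s in the totals, Nono had 972.6 ± 103.4 CPM (SD, n = 3) from pool A and 3378 ± 119 CPM (SD, n = 3) from pool B.

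**Figure D5:**
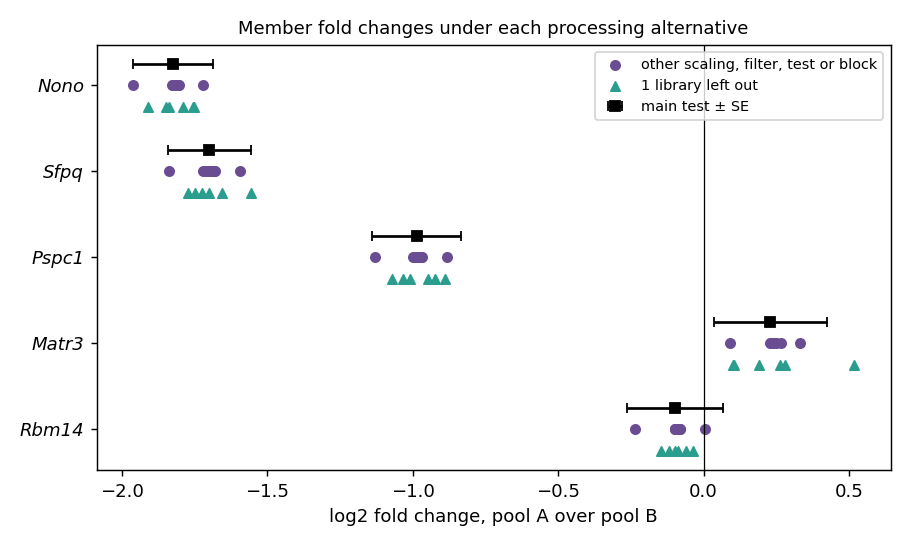
Log2 fold change (pool A over pool B) of each member in the main test (black squares ± SE), under 9 other scalings, filters, tests or a block (purple circles), and with 1 of the 6 libraries left out (green triangles). Nono, Sfpq and Pspc1 stay below -0.88 throughout, whereas Matr3 moves to 0.52 without pool B replicate 1 and Rbm14 reaches 0.0052 with upper-quartile factors.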

How the data were processed

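The authors deposited 1 table of raw counts per Ensembl rat gene for 6 libraries. STAR and featureCounts are named in the submitters' processing notes, and their versions and settings, the genome build and the annotation are not given in the sources used here. The counts are whole numbers with differing totals. The table also holds the authors' deposited mean of each pool's counts, an average that was not used.

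The whole table was fitted in R 4.3.3 by edgeR 4.0.16: expression filter by pool, TMM scaling, and a quasi-likelihood test of the pool, the only term, over 6 libraries. Standard errors came from the fold change and its F statistic. Alternatives used DESeq2 1.42.0, limma 3.58.1, other scalings and filters, a replicate block, and leaving out each library.

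The members and gene lists were chosen with earlier results of these data known. From the list of paraspeckle genes, the 5 genes with the largest fold change in each direction among those called with separate CPM ranges were named, with the genes needed for paraspeckle formation, and from the RBM-named genes the 3 largest in each direction. 1 gene of the paraspeckle list, Neat1 and the genes with profiles like that of Sfpq are not reported here, while the counts of that list cover all its genes.

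Libraries of the same number did not deviate from their pool means together (r = 0.0409, -0.0195 and 0.0200 for replicates 1, 2 and 3), and were not treated as pairs. The chi-square of 2 libraries of a pool was 5.24 to 7.83 per degree of freedom, so no library repeated another within sampling noise. Neighbours were rows within 2 places in the table, and overlaps and pseudogenes came from RefSeq's GRCr8 list. No transcript or oligonucleotide sequences were used here.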

Additional observations from a re-analysis of the deposited data

How the results depend on the processing

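Of the refits of the members, all genes, both lists, the pair ratios and 31 other named genes, 677 of 697 had the same sign and the same call, or a count within 1.5 times, as reported. The pair ratios could change in sign only, because their test could not give a call in any refit. Matr3 gained a call without pool B replicate 1, and leaving out any library gave log2 fold changes from 0.10 to 0.52. Rbm14 turned to 0.0052 with upper-quartile factors, which moved the median of all genes by 0.10. Total counts alone moved it by -0.14. Relative to the median of all genes, Rbm14 was at -0.11 with TMM and with either scaling. The pair difference of Nono and Sfpq lay between -0.35 and 0.023 in the fits without a library. Hnrnpk and Smarca4 turned to 0.013 and 0.024 with upper-quartile factors, and lay between -0.23 and 0.038 and between -0.15 and 0.018 without a library. Of the neighbouring genes, Zmym5 turned to 0.058 with upper-quartile factors and 0.031 with the block, and Zmym6 to 0.13 with limma-voom; without a library they lay between -0.32 and 0.40 and between -0.62 and 0.22. The cause was not tested.

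With the replicate number as a block, the log2 fold changes were -1.83 for Nono, -1.71 for Sfpq, -0.99 for Pspc1, 0.27 for Matr3 and -0.10 for Rbm14, and 2085 and 2476 genes were higher from pool A and pool B. No member changed its call, and no pairing stands behind the block. Depth left counting error of 4.43% to 7.24% for Pspc1, Matr3 and Rbm14, more than for Nono.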

Other observations

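Each DBHS gene lies beside a member of the Zmym family of MYM-type zinc finger genes in the table: Zmym3 near Nono, Zmym1, Zmym4 and Zmym6 around Sfpq, and Zmym5 beside Pspc1. This was noticed after the values had been seen. None of them passed the threshold in the direction of its DBHS neighbour. Zmym3 had a log2 fold change of 0.47 ± 0.20 (SE, edgeR adjusted p = 0.0684), which passed with upper-quartile factors, with a minimum of 10 counts in every library, with limma-voom and without pool B replicate 2 (adjusted p down to 0.0112 over its alternatives). Zmym1 passed in favour of pool A with 2.31 ± 0.64 (SE, edgeR adjusted p = 0.00443), on means of 12.9 ± 6.1 CPM (SD, n = 3) from pool A and 2.66 ± 3.01 CPM (SD, n = 3) from pool B, and lost the call without pool A replicate 2 (adjusted p = 0.0610). Omitting pool B replicate 1 raised the estimate to 3.90, and omitting another single library gave 1.85 to 2.63. Zmym4, Zmym5 and Zmym6 did not pass, with log2 fold changes of -0.32 ± 0.22, -0.044 ± 0.349 and -0.18 ± 0.49 (SE). Zmym1, Zmym5 and Zmym6 had at most 89 counts in a library, against 80 to 140 for Zmym4 and 131 to 284 for Zmym3.

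Of the cell line's own markers, Prl, the gene of the hormone prolactin, differed between the pools in the direction opposite to the DBHS transcripts. Its log2 fold change was 0.83 ± 0.14 (SE, edgeR adjusted p = 1.26e-05). Gh1 and Pou1f1 did not pass, with log2 fold changes of 0.18 ± 0.14 and -0.23 ± 0.15 (SE). Lhb, a gonadotroph marker, was higher from pool B by a log2 fold change of -1.68 ± 0.28 (SE, edgeR adjusted p = 1.99e-05).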
